A study of Mus musculus with 13 samples.

Results

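Cathepsins are the proteases of the lysosome, and cystatin C (Cst3) is the secreted inhibitor of the cysteine cathepsins. The 10 genes described here, Ctsa, Ctsb, Ctsc, Ctsd, Ctsf, Ctsh, Ctsl, Ctss, Ctsz and Cst3, were taken by symbol from the deposited annotation, out of 55401 genes. All 10 were among the 14985 genes that passed the filter on low counts. They were followed in bulk RNA-seq libraries of a brain hemisphere from 5 control (CTL), 4 cuprizone (CPZ) and 4 recovery (RCV) mice. Cuprizone is a copper chelator that, given in the food, kills oligodendrocytes and strips axons of myelin. All mice were C57BL/6J males, put on study at 6 to 8 weeks of age by the sample labels (the methods text gives an older age), with no transgene or deleted allele. The CPZ mice ate chow with 0.3% cuprizone for 4 weeks and were then killed. The RCV mice ate the same chow for 4 weeks and control chow for a further 2 weeks. The CTL mice ate control chow for 6 weeks, so CTL and RCV mice were killed 6 weeks into the study and CPZ mice at week 4, and age at death cannot be told apart from the CPZ group. The question was how the transcripts of lysosomal proteolysis stood at the end of cuprizone feeding and after the return to control chow.

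Cathepsins are made as inactive precursors, sorted through the Golgi by mannose 6-phosphate receptors and cut to their active form in acid compartments. They fall into catalytic classes: Ctsd is an aspartic protease, Ctsa a serine carboxypeptidase, and Ctsb, Ctsc, Ctsf, Ctsh, Ctsl, Ctss and Ctsz are cysteine proteases related to papain. In the brain, every cell type has lysosomes, and microglia, the resident phagocytes, are rich in them because they take up and digest debris, myelin included. Cystatin C binds cysteine cathepsins that escape from cells and does not inhibit Ctsd or Ctsa.

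The libraries held 4605100 to 8197289 estimated counts. Among the markers of other cells, all 15 microglia markers were called higher and 11 of 12 markers of mature oligodendrocytes lower in CPZ than in CTL. In RCV against CTL, 0 of these 15 and 0 of these 12 were called. Of 10 astrocyte markers, 4 (Gfap, Aqp4, Aldh1l1 and Slc1a3) were called higher in CPZ and 2 (Gfap and Aqp4) in RCV, each against CTL. Over all genes tested, 7.66% were called higher and 2.5% lower in CPZ, and 0.36% higher in RCV, again against CTL. Of 8 markers of blood monocytes and neutrophils, 0 passed the filter on low counts and Elane was at 0 in all libraries, and of 7 markers of perivascular and border macrophages, 2 passed and neither was called. The summed level of the perivascular list was 5.84 to 10.3 TPM (a transcript level scaled to length and depth) in CTL, 5.38 to 11.4 TPM in CPZ and 7.51 to 13.1 TPM in RCV. The choroid plexus markers summed to 16.0 TPM in RCV 4 and 18.3 TPM in RCV 3, against at least 751 TPM in the other libraries. In whole-hemisphere RNA, a change in the number of cells of a type and a change in RNA per cell cannot be told apart.

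At the end of cuprizone feeding, 9 of the 10 genes were called higher than in CTL (adjusted p below 0.05 in edgeR's quasi-likelihood test). Among all genes tested, 7.66% were called higher. For the same 9 genes, every CPZ library lay above every CTL library in CPM (counts scaled to library size), against 8.25% of all genes. The exception was Ctsf. The median log2 fold change was 1.72 over the 10 genes and -0.02 over all genes tested. After 2 weeks of control chow, 1 of the 10, Ctss, was called higher than in CTL, where 0.36% of all genes were.

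**Figure D1:**
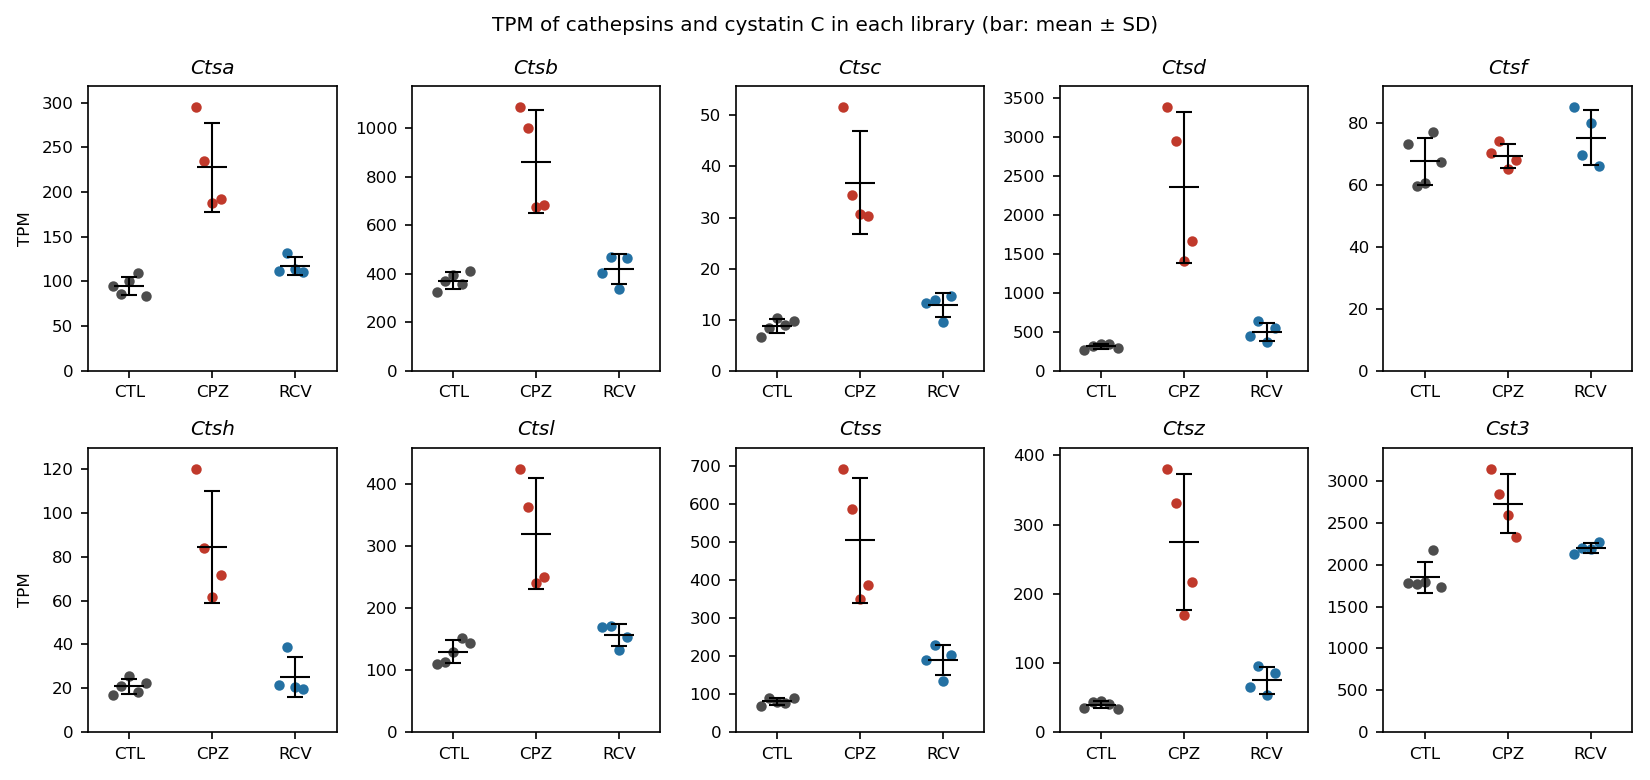
TPM (y axis, linear, from 0) of the 10 genes in each library of the CTL, CPZ and RCV groups, with the mean ± SD as black bars. In 9 panels the CPZ points lie above all CTL and RCV points, and in the Ctsf panel the 3 groups overlap.

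Ctsd, cathepsin D, is the main aspartic protease of lysosomes, and its loss causes a neuronal storage disease in mice and people. It lies on the minus strand (chr7:142375911-142388038, GRCm38, ENSMUSG00000007891.16). The CTL libraries held 266, 317, 351, 340 and 298 TPM, the CPZ libraries 3380, 2951, 1408 and 1661 TPM, and the RCV libraries 447, 644, 369 and 544 TPM. The groups did not overlap, and the CPZ libraries fell into a higher pair (CPZ 1 and 2) and a lower pair (CPZ 3 and 4). The log2 fold change of CPZ against CTL was 2.90 (SE 0.25, adjusted p = 1.1e-05), the largest of the 10. A gene model on the same strand, Gm49369, overlaps Ctsd exons and took 0 to 28 counts per library, against 1534 to 22855 for Ctsd.

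The RefSeq promoter table (GRCm38.p6) gives 250 bases before to 50 after the start of 8 of the 10 genes, without Ctsb and Ctsh. These windows were searched on both strands for the E-box CACGTG and for TCACGTGA, which contains it and is the core of the CLEAR element bound by TFEB, a transcription factor that drives lysosomal genes. CACGTG was present in Ctsa, Ctsd, Ctsf and Ctsl, and in 7.15% of all 32851 windows. TCACGTGA was present in Ctsa and Ctsd, and in 0.974% of all windows. The sites are printed with the match in capitals, 5′ to 3′ on the strand of the gene, because they are a sequence that genes with unlike changes share: Ctsf, which was not called, holds CACGTG as well. A match is a string of letters and not a measured binding site.
Ctsd, chr7:142387908-142387937, minus strand, in an annotated exon: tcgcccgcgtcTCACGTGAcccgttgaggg
Ctsd, chr7:142388048-142388077, minus strand, outside annotated exons: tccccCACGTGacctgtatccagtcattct
Ctsa, chr2:164833757-164833786, plus strand, in an annotated exon: ctgTCACGTGAtgcagatgcTCACGTGAcc
Ctsl, chr13:64370739-64370768, minus strand, in an annotated exon: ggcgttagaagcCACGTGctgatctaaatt
Ctsf, chr19:4855074-4855103, plus strand, outside annotated exons: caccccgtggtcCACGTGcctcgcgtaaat

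The cysteine endopeptidases were split in their response. Ctss, cathepsin S, works at neutral as well as acid pH, cuts the invariant chain of MHC class II and can act outside the cell (chr3:95526786-95556403, plus strand, ENSMUSG00000038642.10). It stood at 69.8, 90.6, 80.3, 77.5 and 90.1 TPM in CTL, at 692, 587, 350 and 386 TPM in CPZ and at 191, 230, 135 and 203 TPM in RCV. All 3 groups were apart from each other. The log2 fold change was 2.65 (SE 0.21, adjusted p = 3.8e-06) in CPZ against CTL and 1.24 (SE 0.21, adjusted p = 0.0284) in RCV against CTL.

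Ctsb, cathepsin B, cuts within proteins and also trims dipeptides from their carboxyl ends (chr14:63122462-63145923, plus strand, ENSMUSG00000021939.8). Its CTL libraries held 324, 371, 396, 356 and 412 TPM, its CPZ libraries 1086, 999, 676 and 683 TPM and its RCV libraries 402, 467, 337 and 465 TPM. The CPZ libraries were above the rest, and the RCV and CTL libraries overlapped. Ctsb was higher in CPZ than in CTL by a log2 fold change of 1.20 (SE 0.12, adjusted p = 9.2e-06). Ctsl, cathepsin L, is a broad endopeptidase (chr13:64359337-64370890, minus strand, ENSMUSG00000021477.9). It went from 110, 113, 130, 152 and 144 TPM in CTL to 425, 363, 241 and 250 TPM in CPZ, and was at 170, 171, 133 and 154 TPM in RCV. Here too only the CPZ libraries stood clear, with a log2 fold change of 1.40 (SE 0.17, adjusted p = 1.3e-04).

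Ctsf, cathepsin F, whose loss also causes a neuronal storage disease, was the gene that was not called (chr19:4855130-4860918, plus strand, ENSMUSG00000083282.3). It was at 73.3, 59.7, 60.8, 77.4 and 67.4 TPM in CTL, 70.4, 74.5, 65.4 and 68.1 TPM in CPZ and 85.3, 69.8, 80.3 and 66.3 TPM in RCV. The 3 groups overlapped. The log2 fold change of CPZ against CTL was 0.06 (SE 0.07, adjusted p = 0.699).

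The cysteine exopeptidases take residues from the ends of proteins, and all 3 were called higher in CPZ. Ctsz, cathepsin Z (also called X), is a carboxypeptidase of phagocytes (chr2:174427493-174439039, minus strand, ENSMUSG00000016256.10). It was at 35.1, 44.0, 45.1, 41.1 and 34.2 TPM in CTL, 381, 332, 170 and 217 TPM in CPZ and 65.6, 96.2, 53.7 and 85.4 TPM in RCV. The groups did not overlap, and the log2 fold change of CPZ against CTL was 2.80 (SE 0.24, adjusted p = 1.0e-05).

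Ctsh, cathepsin H, is an aminopeptidase (chr9:90054152-90076089, plus strand, ENSMUSG00000032359.14). Its CTL libraries held 16.8, 21.2, 25.6, 18.4 and 22.5 TPM, its CPZ libraries 120, 84.0, 61.8 and 71.8 TPM and its RCV libraries 21.6, 38.8, 20.8 and 19.7 TPM. The RCV libraries overlapped CTL except for RCV 2. The log2 fold change of CPZ against CTL was 2.28 (SE 0.19, adjusted p = 2.0e-06). Ctsc, cathepsin C or dipeptidyl peptidase I, activates the serine proteases of immune cell granules (chr7:88278085-88310888, plus strand, ENSMUSG00000030560.17). It was the least abundant of the 10, at 6.72, 8.45, 10.3, 9.02 and 9.76 TPM in CTL, 51.6, 34.5, 30.7 and 30.3 TPM in CPZ and 13.3, 13.9, 9.55 and 14.7 TPM in RCV. The CPZ libraries were above all others, with a log2 fold change of 2.05 (SE 0.17, adjusted p = 1.3e-06) against CTL. These values rest on 42 to 71 counts per CTL library for Ctsc.

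A further motif, GAGGAAGT, the core of sites bound by PU.1, a transcription factor of microglia and other myeloid cells, was searched in the same windows on both strands. It was found in Ctss and Ctsc, in both on the reverse strand, and in 3.2% of all windows. It was not found in the windows of Ctsd and Ctsz, the genes with the largest changes. Both upstream regions that hold it are printed on the strand of the gene, with the match in capitals, to show where in them it lies. The match spans the start in Ctss and lies 151 to 144 bases before it in Ctsc.
Ctss, chr3:95526536-95526797, plus strand, 250 bases before the start and 12 after it: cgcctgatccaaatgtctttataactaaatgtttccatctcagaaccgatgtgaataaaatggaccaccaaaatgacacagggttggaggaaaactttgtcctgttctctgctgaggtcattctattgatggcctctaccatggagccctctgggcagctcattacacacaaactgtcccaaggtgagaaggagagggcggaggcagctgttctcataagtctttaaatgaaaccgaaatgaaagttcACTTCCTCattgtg
Ctsc, chr7:88277835-88278084, plus strand, 250 bases before the start: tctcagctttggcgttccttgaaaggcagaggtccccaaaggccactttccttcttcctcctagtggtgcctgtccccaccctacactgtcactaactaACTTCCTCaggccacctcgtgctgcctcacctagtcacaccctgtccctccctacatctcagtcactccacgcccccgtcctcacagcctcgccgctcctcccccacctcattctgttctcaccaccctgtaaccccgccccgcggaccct

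Ctsa, the serine carboxypeptidase, also holds lysosomal neuraminidase and beta-galactosidase in a protective complex (chr2:164832873-164841032, plus strand, ENSMUSG00000017760.16). It was at 94.9, 86.5, 100, 109 and 83.9 TPM in CTL, 295, 235, 188 and 192 TPM in CPZ and 112, 132, 114 and 111 TPM in RCV. The 3 groups did not overlap, although the lowest RCV library and the highest CTL library were close. The log2 fold change was 1.25 (SE 0.13, adjusted p = 1.1e-05) in CPZ against CTL.

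Cst3, cystatin C, is a small secreted protein abundant in brain and cerebrospinal fluid (chr2:148871722-148875692, minus strand, ENSMUSG00000027447.6). Its CTL libraries held 1779, 1764, 1792, 2179 and 1735 TPM, its CPZ libraries 3143, 2843, 2586 and 2325 TPM and its RCV libraries 2131, 2202, 2191 and 2266 TPM. The CPZ libraries were above all others, and CTL 4 reached into the RCV range. The RCV libraries with low choroid plexus markers, RCV 3 and 4, had 2191 and 2266 TPM of Cst3, beside 2131 and 2202 TPM in RCV 1 and 2. Astrocytes also express Cst3. The summed level of their 10 markers moved in the same order of groups, at 1968 to 2370 TPM in CTL, 2666 to 3159 TPM in CPZ and 2423 to 2681 TPM in RCV. Most of this change was Gfap, with means of 135 TPM in CTL, 709 TPM in CPZ and 460 TPM in RCV. By mean TPM, Aqp4, Slc1a3, Aldoc, Slc4a4 and Gjb6 followed the same order, and Aldh1l1, Slc1a2, Gja1 and S1pr1 did not. All 15 microglia markers were called higher in CPZ too. The part of choroid plexus, astrocytes or microglia in the Cst3 values was not tested. The log2 fold change of CPZ against CTL was 0.58 (SE 0.08, adjusted p = 6.1e-05), the smallest of the 9 called. The inhibitor was the most abundant of the 10 transcripts in CTL and RCV, whereas in CPZ Ctsd exceeded it in 2 of 4 libraries.

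**Figure D2:**
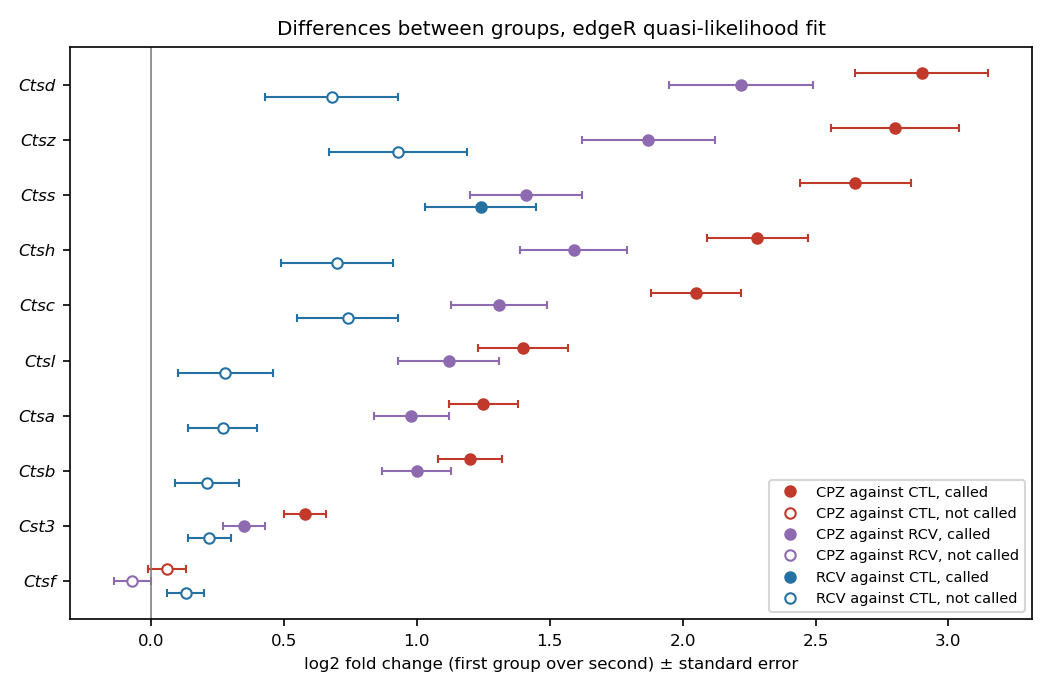
Log2 fold changes (x axis) for the 10 genes (y axis) in 3 contrasts from the edgeR fit, with filled points for adjusted p below 0.05. Bars are standard errors worked out as the absolute log2 fold change over the square root of the F statistic. Ctsd, Ctsz and Ctss have the largest differences between CPZ and CTL (2.90, 2.80 and 2.65), Cst3 the smallest of those called (0.58), and Ctss the filled point of RCV against CTL (1.24).

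Setting CPZ against RCV, 9 of the 10 genes were called higher in CPZ, against 5.13% of all genes tested, and in those 9 no RCV library reached the lowest CPZ library, as in 8.26% of all genes. Both contrasts with CPZ use the same CPZ libraries, so they are not independent. The log2 fold changes were 2.22 (SE 0.27, adjusted p = 5.1e-04) for Ctsd, 1.87 for Ctsz, 1.59 for Ctsh, 1.41 for Ctss, 1.31 for Ctsc, 1.12 for Ctsl, 1.00 for Ctsb and 0.98 for Ctsa. Cst3 was lowest with 0.35 (SE 0.08, adjusted p = 0.0123), and this call was lost in the 3 fits on log2 TPM (adjusted p = 0.107 to 0.244). Ctsf was at -0.07 (SE 0.07, adjusted p = 0.67).

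In RCV against CTL, the fitted log2 fold changes of all 10 genes were above 0, with a median of 0.48 against -0.0044 over all genes tested, and 6 of the 10 had an unadjusted p below 0.05, against 4.03% of all genes with such a p and a higher level in RCV. In CPM, RCV and CTL libraries were fully apart for 5 genes, Ctsa, Ctsc, Ctsd, Ctss and Ctsz, against 2.21% of all genes. In TPM, Ctsc overlapped. Beyond Ctss, the log2 fold changes were 0.93 for Ctsz (SE 0.26, adjusted p = 0.278), 0.74 for Ctsc (SE 0.19, adjusted p = 0.16), 0.70 for Ctsh (SE 0.21, adjusted p = 0.338), 0.68 for Ctsd (SE 0.25, adjusted p = 0.566) and 0.22 for Cst3 (SE 0.08, adjusted p = 0.416). The call of Ctss was lost, with a log2 fold change of 1.13 to 1.28, when any CTL library or RCV 1, 2 or 4 was left out (adjusted p = 0.0551 to 0.15), and without the filter on low counts (adjusted p = 0.0812). The value for Ctsh was 0.22 to 0.23 in the fits on log2 TPM, in place of 0.70.

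To set the genes on 1 scale, each RCV mouse was placed between the CTL mean (0) and the CPZ mean (1) of log2-CPM. What was left of the CPZ change came to 0.174 ± 0.112 for Ctsb, 0.193 ± 0.184 for Ctsl, 0.22 ± 0.102 for Ctsa and 0.232 ± 0.122 for Ctsd (mean ± SD, n = 4). It was 0.3 ± 0.133 for Ctsh, 0.329 ± 0.134 for Ctsz, 0.366 ± 0.0976 for Ctsc, 0.397 ± 0.0559 for Cst3 and 0.467 ± 0.121 for Ctss. In single mice, Ctss ranged from 0.297 in RCV 3 to 0.584 in RCV 2, and Ctsd from 0.0862 in RCV 3 to 0.372 in RCV 2. Neighbours in this order lay within each other's spread. No test was made, since the same CTL libraries enter both differences. The order depended on the scale: on linear CPM the share was highest for Cst3 (0.342), followed by Ctss (0.257), and lowest for Ctsd (0.0926), below Ctsb (0.119).

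**Figure D3:**
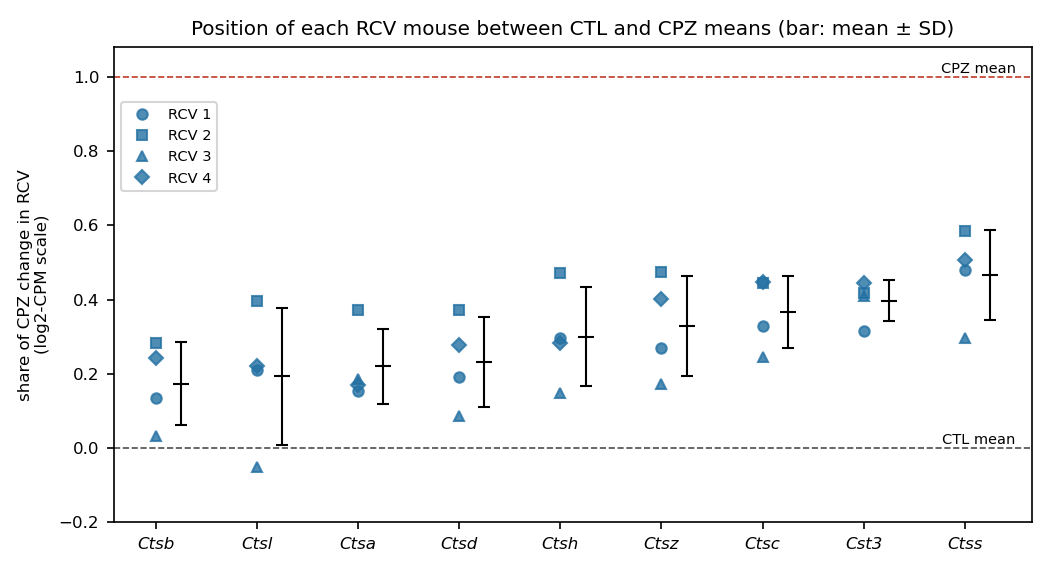
Share of the CPZ change still present in each RCV mouse (y axis, log2-CPM scale, 0 at the CTL mean and 1 at the CPZ mean) for the 9 genes called in CPZ against CTL, with mean ± SD beside the points. On this scale, means run from 0.174 for Ctsb to 0.467 for Ctss (on linear CPM, from 0.0926 for Ctsd to 0.342 for Cst3), and RCV 3 (triangles) is the lowest mouse for 7 of the 9 genes.

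Summed over the 9 cathepsins, the transcripts made up 1130 ± 81.5 TPM in CTL (SD, n = 5), 4727 ± 1606 TPM in CPZ (SD, n = 4) and 1572 ± 258 TPM in RCV (SD, n = 4). No CPZ library (3191 to 6500 TPM) came near a CTL library (997 to 1200 TPM), and RCV libraries held 1252 to 1863 TPM. The makeup of this sum shifted as well. Ctsd was 27.8% ± 1.54 of it in CTL, 48.7% ± 3.99 in CPZ and 31.6% ± 2.48 in RCV, and the lowest CPZ library (44.1%) was above the highest RCV library (34.6%). The 7 cysteine cathepsins that cystatin C can bind summed to 0.392 ± 0.0458 transcripts per Cst3 transcript in CTL, 0.78 ± 0.13 in CPZ and 0.434 ± 0.0596 in RCV. The lowest CPZ ratio was 0.617 and the highest CTL ratio 0.45. These are ratios of RNA and not of protein or activity.

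**Figure D4:**
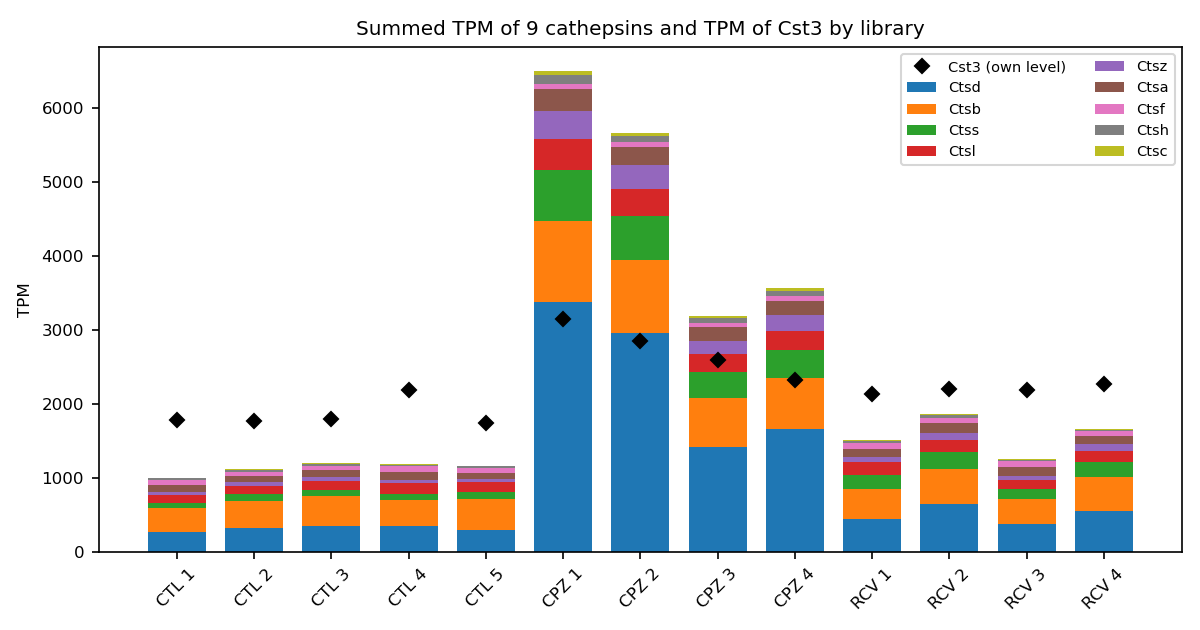
Stacked TPM of the 9 cathepsins (bars, y axis from 0) and TPM of Cst3 (black diamonds) in each of the 13 libraries. The stack exceeds the diamond in the 4 CPZ libraries and in no CTL or RCV library, and Ctsd is the largest segment in CPZ.

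By mean TPM, the order in CTL was Cst3 (1850), Ctsb (372), Ctsd (315), Ctsl (130), Ctsa (95), Ctss (81.7), Ctsf (67.7), Ctsz (39.9), Ctsh (20.9) and Ctsc (8.85). The ranges of Ctsb and Ctsd overlapped, as did those of Ctsa and Ctss and of Ctss and Ctsf, and the other neighbours were apart. In CPZ, Ctsd (2350 TPM) stood next to Cst3 (2724 TPM) and above Ctsb (861 TPM) in 4 of 4 libraries, followed by Ctss (504), Ctsl (320), Ctsz (275), Ctsa (227), Ctsh (84.5), Ctsf (69.6) and Ctsc (36.8). Most neighbours overlapped there, and the ranges were apart between Ctsd and Ctsb, Ctsa and Ctsh, and Ctsf and Ctsc. In RCV the order was that of CPZ for the first 5 genes, with Ctsd (501 TPM) above Ctsb (418 TPM) in 4 of 4 libraries although their ranges overlapped, then Ctsa (117), Ctsf (75.4), Ctsz (75.2), Ctsh (25.2) and Ctsc (12.8).

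The genes shared an order of libraries within CPZ and, for most genes, within RCV. In log2-CPM, CPZ 1 was the highest CPZ library for 10 of 10 genes, and the lowest was CPZ 3 for 7 and CPZ 4 for 3. RCV 2 was the highest RCV library for 7 genes and RCV 3 the lowest for 7. In CTL there was no common order, with the highest library CTL 3 for 4 genes, CTL 2 for 3 and CTL 4 for 3, and the lowest CTL 1 for 6, CTL 5 for 3 and CTL 2 for 1. The mean log2-CPM of the 15 microglia markers was 7.18 in CPZ 1, 7.06 in CPZ 2, 6.06 in CPZ 3 and 6.48 in CPZ 4, and 5.03, 5.22, 4.86 and 5.21 in RCV 1 to 4, against 4.17 to 4.44 in CTL. Their summed level was 517 to 635 TPM in CTL, 2151 to 4791 TPM in CPZ and 858 to 1204 TPM in RCV, and their median log2 fold change of CPZ against CTL was 2.57. In RCV against CTL their median was 0.74 and edgeR called 0 of the 15. Of the 15, 12 had an unadjusted p below 0.05, against 4.03% of all genes with such a p and a higher level in RCV. P2ry12 was at 0.01 (adjusted p = 0.999) and Tmem119 at -0.06 (adjusted p = 0.998). Other lists shared parts of this order. The mean log2-CPM in CPZ 1 to 4 was 8.28, 8.21, 8.11 and 8.18 for astrocyte markers. For 5 blood markers (haemoglobin chains and Alas2) it was 4.66, 4.30, 4.04 and 4.14, and 4.79, 5.27, 4.62 and 5.01 in RCV 1 to 4. Neuron markers were lowest in CPZ 1 (9.09), and mature oligodendrocyte markers highest in CPZ 4 (6.40). The part of microglial number or state, or of other cells or blood, in the cathepsin values was not tested.

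**Figure D5:**
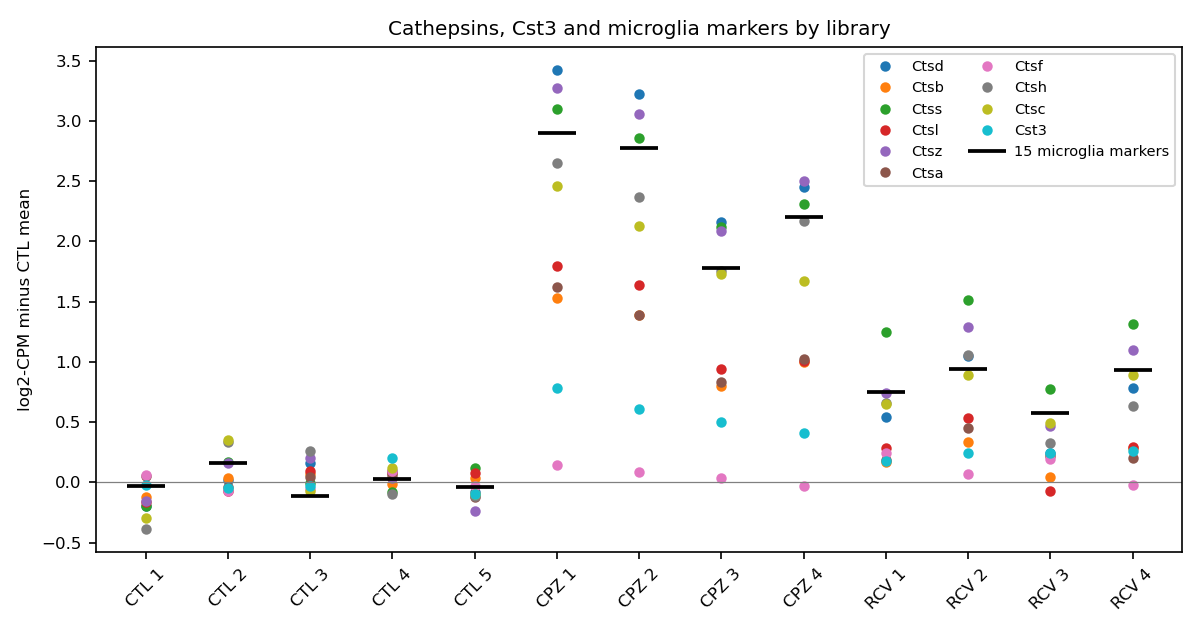
Log2-CPM minus the CTL mean (y axis) of the 10 genes (coloured points) and of the mean of 15 microglia markers (black dashes) in each library (x axis). In CPZ, all 10 genes are highest in CPZ 1, and the microglia markers, at 7.18 before centring, are highest there too. Astrocyte (8.28) and blood (4.66) markers, not drawn, were also highest in CPZ 1, and neuron markers (9.09) lowest.

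The genes whose profile over the 13 libraries was most like each of the 9 called genes were found by the root mean square difference of CTL-centred log2-CPM. Ctsa and Ctsb were each nearest to Man2b1, the lysosomal alpha-mannosidase (0.08 and 0.10), and Ctsl to Hexa, a subunit of beta-hexosaminidase (0.09). Other genes were about as near: Lgmn (0.10) and Cotl1 (0.11) to Ctsb, and Tnfrsf1a to Ctsa (0.10) and Ctsl (0.11). Ctsd was about as near to Grn, progranulin (0.24), as to Plek, pleckstrin (0.24), and C1qc, a chain of complement C1q (0.25). Ctsh was about as near to Gusb, beta-glucuronidase (0.18), as to Nckap1l, an actin regulator of blood cells (0.19), and Vim (0.20). Ctsz and Ctss were nearest to C1qb, another chain of C1q (0.14 and 0.18). Ctsc was nearest to Csf1r, the receptor for colony stimulating factor of microglia (0.16), with Nckap1l close behind (0.17). C1qb, C1qc and Csf1r are also on the list of microglia markers. Cst3 was nearest to Eprs, a tRNA synthetase (0.09), and then to Asah1, acid ceramidase (0.10). Among the 9 called genes themselves, the closest pairs were Ctsa and Ctsb (0.10), Ctsb and Ctsl (0.14), Ctsa and Ctsl (0.15) and Ctsd and Ctsz (0.17).

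Of 14 other cathepsins, 2 passed the filter on low counts. Ctso, a cysteine cathepsin, was called higher in CPZ than in CTL by a log2 fold change of 0.39 (SE 0.08, adjusted p = 0.00321), a call lost with log2(TPM + 1) and no filter (adjusted p = 0.0556), and Ctsk, best known from bone resorption, was at -0.15 (adjusted p = 0.852). Ctse, an aspartic protease of endosomes and immune cells, did not pass the filter. It had 0 counts in all 5 CTL libraries, 20, 29, 8 and 7 counts in CPZ and 2, 7, 4 and 4 counts in RCV. Against the 3 counts over the CTL group that a count of 0 allows, the pooled level was 23.3-fold higher in CPZ (64 counts) and 7.98-fold higher in RCV (17 counts). These folds allow for counting error in CTL only, not in CPZ or RCV and not for the spread between mice.

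Of 22 further inhibitors of lysosomal proteases, 7 were tested, and 2 were called higher and 1 lower in CPZ than in CTL, against 7.66% and 2.5% of all genes. Cst7, cystatin F, which is made by microglia and inhibits Ctsc, went from 0 to 0.75 TPM in CTL to 190, 143, 52.2 and 78.2 TPM in CPZ, and was at 14.1, 16.4, 3.26 and 9.20 TPM in RCV. Its groups did not overlap, and its fitted log2 fold change of 8.38 (SE 0.71, adjusted p = 8.7e-06) in CPZ against CTL depends on the prior count, as CTL libraries held 0 to 2 counts. In RCV against CTL, edgeR did not call Cst7 (4.99, SE 1.05, adjusted p = 0.0913), and 7 of 21 alternatives did. Serpina3n, a secreted serine protease inhibitor, was at 11.1 to 23.9 TPM in CTL, 71.0 to 108 TPM in CPZ and 46.1 to 104 TPM in RCV. It was called in CPZ against CTL (log2 fold change 2.45, SE 0.26) and in RCV against CTL (1.93, SE 0.27, adjusted p = 0.00902), and not in CPZ against RCV (0.52, adjusted p = 0.298). Serpinb1a, an inhibitor of neutrophil serine proteases, fell by 1.04 on the log2 scale (SE 0.19, adjusted p = 0.00139), a call lost with log2(TPM + 1) and no filter (adjusted p = 0.0665). Cstb, the cytosolic cystatin B, was at 0.32 (SE 0.14, adjusted p = 0.185).

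All 8 enzymes that activate or accompany the cathepsins were tested, and 6 of them were called higher in CPZ, against 7.66% of all genes. Lgmn, the asparaginyl endopeptidase that matures several cathepsins, led with 1.11 (SE 0.12), followed by Scpep1 (0.83), Prcp (0.76), Glb1 (0.67), Dpp7 (0.56) and Tpp1 (0.54). Neu1, the neuraminidase bound by Ctsa, was at -0.12 (adjusted p = 0.515) and Psap, prosaposin, at 0.10 (adjusted p = 0.331). In RCV against CTL 0 of the 8 were called by edgeR, and 0 had an unadjusted p below 0.05. The calls of Tpp1, Prcp and Dpp7 were lost in 1 or more fits on log2 TPM.

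Of 9 genes that sort enzymes to the lysosome, 1 was called higher in CPZ than in CTL, Nagpa (0.98, SE 0.18, adjusted p = 0.00139), which uncovers the mannose 6-phosphate tag. With 7.66% of all genes called higher, 1 of 9 is near that background. The receptors of that tag, Igf2r (-0.16, adjusted p = 0.137) and M6pr (0.15, adjusted p = 0.102), were not called in this contrast. In CPZ against RCV, 2 of the 9 were called higher by edgeR, against 5.13% of all genes. They were Nagpa (0.93, adjusted p = 0.00697) and M6pr (0.21, SE 0.06, adjusted p = 0.0342). The call of M6pr was lost in 11 of 23 alternatives. Of 4 transcription factors of the lysosomal gene network, 3 were tested and 0 called by edgeR: Tfeb was at -0.06 (adjusted p = 0.858), Tfe3 at 0.20 (adjusted p = 0.129) and Mitf at 0.54 (adjusted p = 0.132), and 2 of the 3, Tfe3 and Mitf, had an unadjusted p below 0.05, against 12.4% of all genes with such a p and a higher level in CPZ. In the fits on log2 TPM, Tfe3 was called with 0.48 to 0.50. Of 7 tested genes of the lysosomal membrane, 4 were called higher in CPZ, against 7.66% of all genes. They were Cd68, the macrophage sialomucin (3.72, SE 0.26), Cd63 (1.02), Lamp2 (0.81) and Lamp1 (0.39). Npc1, the cholesterol transporter, was at -0.13 (adjusted p = 0.483). Cd68 was also called in RCV against CTL (1.63, SE 0.28, adjusted p = 0.0331), as Ctss was. The call of Cd68 was lost when CTL 1, 3, 4 or 5 or RCV 1, 2 or 4 was left out (adjusted p = 0.0779 to 0.17). It was also lost with limma-voom (adjusted p = 0.166), with no count filter (0.108) and with at least 10 counts in every library (0.0522).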

How the data were processed

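RNA of a frozen hemisphere was sequenced by the authors with a Kapa mRNA kit on an Illumina instrument, 1 library per sample. The submitters' processing notes name STAR, RSEM and build mm10, without versions. The authors deposited estimated counts per gene, not scaled to depth, and TPM values, scaled to transcript length and depth. The strand setting is not given. The span of a gene on the opposite strand overlaps exons of Ctsa, Ctsb, Ctsc, Ctsl and Ctsz. Without the strand setting, reads that both genes could have given cannot be told apart. At Ctsl, the opposite-strand gene Gm47123 held 0 counts in all libraries, as did a same-strand pseudogene, Gm49230. Other neighbours were expressed. Nelfcd held 176 to 299 counts in CTL and 254 to 321 in CPZ, where Ctsz held 115 to 187 and 776 to 1732. Pltp held 369 to 576 and 475 to 563, where Ctsa held 382 to 580 and 980 to 1645. Fdft1 held 468 to 608 and 417 to 471, where Ctsb held 2719 to 3323 and 6077 to 10461. Depth was 4605100 to 8197289 estimated counts per library, and 92 spike-in identifiers held 0.

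Estimated counts were rounded and tested in edgeR 4.0.16 (filterByExpr, TMM, robust quasi-likelihood F test, R 4.3.3) in 1 fit of all 13 libraries with 1 mean per group and no covariate. P values were adjusted over 14985 genes by Benjamini-Hochberg. The SE given with a log2 fold change was worked out as its absolute value over the square root of the F statistic. It is not a standard error taken from the fit. Log2-CPM used a prior count of 2. Groups came from the treatment labels. The titles of the RCV samples begin with "Veh", and the treatment text gives smaller groups than the 5, 4 and 4 libraries. Labels do not say which mice shared a cage or a batch, so p-values measure the spread between these samples. The chi-square per gene between replicates was 4.23 to 16.3 over 22 pairs, so none was a repeat deposit. The fit was tested on simulated data.

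The 10 genes, the lists and the motifs were chosen with earlier results of these data known. Named are these 10, listed pathway genes that were called or counted, and the nearest profiles among genes whose mean log2-CPM reached 3. Ctse, below the filter, was named after its values were seen. Positions are from GENCODE M21 (GRCm38), which held 98.1% of the identifiers, and promoters from RefSeq (GRCm38.p6). The alternatives were DESeq2 1.42.0, its size factors, limma-voom (limma 3.58.1), limma on log2(TPM + 1) or log2(TPM + 0.1), filtered to 1 TPM in 4 or more libraries or unfiltered, no count filter, at least 10 counts, only the 2 groups compared, the replicate number as a block, and each library left out.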

Additional observations from a re-analysis of the deposited data

Results flagged for a closer look

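Each of the 10 genes was checked in each of the 3 groups for a library far from the rest, 30 groups in all, where chance gives about 1 in 20. Ctsa was at 104 CPM in RCV 2, and the other RCV libraries were at 86.8 to 89.1 CPM. Cst3 was at 668 CPM in CTL 4, and the other CTL libraries were at 541 to 573 CPM. In CTL 4, astrocyte markers (2370 TPM) and OPC markers (117 TPM) had the highest summed level of the CTL group and mature oligodendrocyte markers (2556 TPM) the lowest, against 1968 to 2251 TPM, 81.7 to 91.7 TPM and 3628 to 4825 TPM in the other CTL libraries. Its choroid plexus markers summed to 1357 TPM, within the 751 to 5139 TPM of the group. Their part in the Cst3 value was not tested.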

How the results depend on the processing

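In CPZ against CTL, the 10 genes kept their direction and their side of the threshold under every alternative that was run. In CPZ against RCV, Cst3 lost its call in the 3 log2 TPM fits (adjusted p = 0.107, 0.11 and 0.244), and no other of the 10 genes changed its call. In RCV against CTL 1 gene was called: 3 were called with DESeq2 (Ctss, Ctsc and Ctsz), 2 with only the 2 groups compared, 0 without the filter on low counts, 0 with log2(TPM + 1) and no filter, and 0 to 1 with single libraries left out. The cause was not tested. The share of the CPZ change remaining fell on linear CPM to 0.214 for Ctsc, 0.0926 for Ctsd, 0.158 for Ctsh, 0.257 for Ctss and 0.151 for Ctsz. On log2(TPM + 1) it was 0.254 for Ctsc, 0.114 for Ctsh and 0.457 for Cst3. Tfeb in CPZ against CTL moved from -0.06 to 0.01 without CPZ replicate 2, in a range of -0.12 to 0.01 with single libraries left out. Counts of all genes called moved by over 1.5 times in RCV against CTL from 56 to 131 with DESeq2, 16 with limma-voom, 20 with at least 10 counts, 16 with log2(TPM + 1) and no filter and 21 to 87 with single libraries left out. In CPZ against RCV they moved from 1050 to 584, 503 and 477 in the log2 TPM fits, 632 without CPZ 1 and 693 without CPZ 2, and in CPZ against CTL from 1522 to 993 with log2(TPM + 1) and no filter. Same-numbered samples did not deviate together (correlations of -0.199 to 0.136, 3 of 12 over 0.1), so the numbers were not taken as pairs, and with the replicate block 9 of the 10 genes were called in each contrast with CPZ and 1 in RCV against CTL. Depth limits Ctsc most, with 42 to 71 counts per CTL library.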
